A study of Arabidopsis thaliana with 2 samples.

Results

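Sugar leaves source cells and enters the phloem through 2 groups of membrane proteins, and 10 genes of these groups were followed in the stem of Arabidopsis thaliana. The set was defined by locus and by name, with earlier results of these data known, and holds 6 SWEET genes (SWEET1, SWEET2, SWEET11, SWEET12, SWEET16 and SWEET17) and 4 SUC genes (SUC1 to SUC4) of 33602 loci with a value. All 10 were found and all 10 had a mean of at least 1 FPKM, the minimum for the comparison. FPKM scales the fragments of a gene by its length and by the size of the library. It does not correct for a different make-up of the libraries, so other scalings were tried as well.

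The study sequenced total RNA of the mature main stem, with 1 library from wild-type plants and 1 from the hdt1 mutant. Below, wild type and hdt1 stand for these libraries. Both sets of plants were collected 35 days after flowering and grew in a greenhouse at 20 °C with 16 h of light and 8 h of dark. HDT1 encodes a plant-specific HD2 histone deacetylase. The labels name neither the hdt1 allele nor the number of plants behind a library. With 1 library per genotype there is no replicate check and no test between genotypes, and no p-value is given. Folds are ratios of the FPKM values, and the brackets after them give a 95% exact (Clopper-Pearson) interval for counting error alone. Log2 ratios are of hdt1 over wild type with 1 FPKM added to both values, which shrinks the differences of low genes.

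From the values, the library totals were 21728500 in wild type and 23070249 in hdt1, in reads or read pairs. HDT1 (AT3G44750) was at 52.6 FPKM in wild type and 5.19 in hdt1, 10.2-fold lower (8.42 to 12.3). Markers of xylem, epidermis, phloem and green tissue were present in both libraries, whereas the 5 flower genes summed to 3.295 FPKM in wild type and 3.24 in hdt1. Of these AP3, AG and PI were at 0.252 FPKM or less in both libraries. The 4 seed genes summed to 0.734 and 1.02 FPKM, with FUS3, a regulator of seed development, at 0.734 and 0.879, OLEO1, an oil body protein, at 0 and 0.143, and the storage protein genes CRA1 and CRC listed at 0. Over the 17811 loci compared the median log2 ratio was -0.03, and 3.06% were past 2-fold, 2.32% higher and 0.741% lower in hdt1.

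SWEET proteins are uniporters that let sugars pass a membrane down their gradient. SUC proteins are sucrose and proton symporters that use the proton gradient to take sucrose up against its gradient. In the leaf of Arabidopsis, SWEET11 and SWEET12 release sucrose from phloem parenchyma into the cell wall space, and SUC2 loads it from there into the companion cells. In the stem, transport phloem both loses and retrieves sucrose along its length.

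Most of the 10 genes were somewhat higher in hdt1 and none was 2-fold higher or lower on the scale with 1 FPKM added. At a limit of 1.5-fold 2 members, SWEET12 and SWEET16, were higher and none was lower, beside 7.04% and 3.21% of all genes compared. The log2 ratio was above 0 for 9 of 10 members, against 46.0% of all genes compared, and the median over the members was 0.26. For 5 members the interval of the fold was wholly above 1 (SWEET11, SWEET12, SWEET16, SUC2 and SUC4), for SUC1 it was below 1, and for the other 4 it included 1. Over all genes compared the interval lay above 1 for 25.0% and below 1 for 29.3%. The sum over the 6 SWEET genes was 514 FPKM in wild type and 778 in hdt1, while the sum over the 4 SUC genes was 523 and 500. Of the first sum, SWEET11 and SWEET12 held 439 FPKM in wild type and 696 in hdt1. Of the second, SUC1 held 386 and 324, while 3 of the 4 SUC genes had a log2 ratio above 0.

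**Figure D1:**
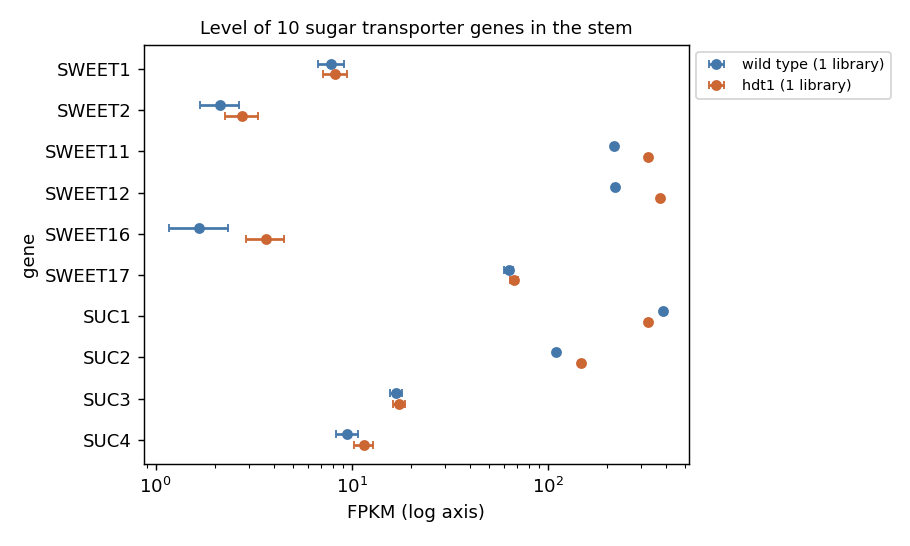
FPKM (log axis) of the 10 members in wild type (blue) and the hdt1 library (orange), 1 library each, with bars for the 95% exact Poisson counting interval of each value. SWEET12 went from 221 to 373 FPKM and SUC1 from 386 to 324.

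SWEET11 (AT3G48740) and SWEET12 (AT5G23660), the sucrose exporters of the phloem parenchyma in the leaf, were the most abundant SWEET genes in both libraries. SWEET11 was at 218 FPKM in wild type and 323 in hdt1, from 6207 and 9753 reads, 1.48-fold higher (1.43 to 1.53). SWEET12 was at 221 and 373 FPKM, from 6104 and 10959 reads, 1.69-fold higher (1.64 to 1.75). Both were higher in hdt1, and the interval of SWEET12 lay wholly above that of SWEET11. Ranked by level among the 17811 loci, SWEET12 stood at position 578 in wild type and 242 in hdt1, and SWEET11 at 590 and 307.

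The ratio of a pair of genes within a library does not depend on how the libraries are scaled. SWEET12 over SWEET11 was 1.01 (0.977 to 1.05) in wild type and 1.16 (1.13 to 1.19) in hdt1. The exporters were thus level with each other in wild type only, within counting error.

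The vacuolar members SWEET16 and SWEET17 differed from each other by more than an order of magnitude in level. SWEET17 (AT4G15920), a fructose facilitator of the tonoplast, was at 63.1 FPKM in wild type and 67.2 in hdt1, 1.06-fold higher (0.989 to 1.14), an interval that includes 1. SWEET16 (AT3G16690), a tonoplast carrier of several sugars, was at 1.67 and 3.65 FPKM from as little as 35 and 81 reads, 2.18-fold higher (1.45 to 3.34). It had the highest log2 ratio of the members, 0.80, and with 1 FPKM added it stayed under 2-fold. SWEET17 over SWEET16 was 37.7 (27.0 to 54.4) in wild type and 18.4 (14.7 to 23.3) in hdt1.

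The other SWEET members were low and their intervals included 1. SWEET1 (AT1G21460), a glucose uniporter of the plasma membrane, was at 7.88 FPKM in wild type and 8.25 in hdt1, 1.05-fold higher (0.847 to 1.29). Its locus overlaps AT1G21450 on the opposite strand in the annotation, which was at 23.6 and 34.8 FPKM, and the strand setting of the counting is unknown here. SWEET2 (AT3G14770), a tonoplast glucose transporter known from roots, was at 2.13 and 2.76 FPKM, 1.3-fold higher (0.958 to 1.76).

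Among the sucrose symporters SUC1 and SUC2 went opposite ways. SUC1 (AT1G71880), a symporter of the plasma membrane known from pollen and roots, had the highest level of the 10 genes in wild type. It was at 386 FPKM there and at 324 in hdt1, from 16248 and 14471 reads, 1.19-fold lower (1.17 to 1.22). SUC2 (AT1G22710), the symporter of companion cells that loads the phloem, was at 110 and 147 FPKM, from 4686 and 6634 reads, 1.33-fold higher (1.28 to 1.38). SUC1 over SUC2 was 3.5 (3.39 to 3.62) in wild type and 2.2 (2.14 to 2.27) in hdt1. No word of 50 bases in the exons of any of the 10 members occurs elsewhere in the RefSeq genome (TAIR10.1), so that the neighbouring copy SUC5 (AT1G71890) shares no such stretch with SUC1.

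SUC3 and SUC4 were lower in level than SUC1 and SUC2. SUC3 (AT2G02860), named SUT2 in the annotation and known from sieve elements and sink tissues, was at 16.8 FPKM in wild type and 17.4 in hdt1, 1.04-fold higher (0.943 to 1.15). SUC4 (AT1G09960), named SUT4 in the annotation, releases sucrose from the vacuole. It was at 9.47 and 11.5 FPKM, 1.22-fold higher (1.02 to 1.45). Its read numbers could be fixed only up to a common factor, and with the smallest possible numbers, 58 and 75, the interval was 0.853 to 1.75 and included 1.

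**Figure D2:**
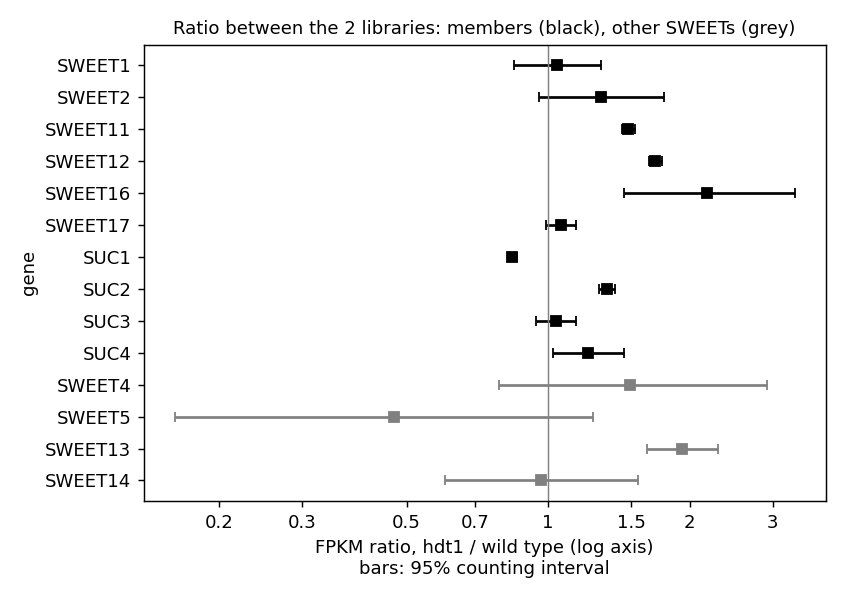
FPKM ratio of hdt1 over wild type (log axis) for the 10 members (black) and the 4 other SWEET genes above 0.3 FPKM in both libraries (grey), with bars for the 95% counting interval. SWEET11, SWEET12, SWEET16, SUC2, SUC4 and SWEET13 lie to the right of 1 with their whole interval, and SUC1 lies to the left.

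The order of the members by level was SUC1, SWEET12, SWEET11, SUC2, SWEET17, SUC3, SUC4, SWEET1, SWEET2 and SWEET16 in wild type. Neighbours whose ratio had an interval including 1 were SWEET12 and SWEET11, SUC4 and SWEET1 (1.2, 0.981 to 1.47), and SWEET2 and SWEET16 (1.27, 0.842 to 1.95). In the hdt1 library SWEET12 came first, then SUC1 and SWEET11, and SWEET16 stood before SWEET2, with the places between as in wild type. There SUC1 and SWEET11 could not be told apart by counting error (1.003, 0.978 to 1.03), nor could SWEET16 and SWEET2 (1.32, 0.978 to 1.78). SWEET12 exceeded SUC1 by 1.15-fold (1.12 to 1.18) in hdt1, whereas SUC1 exceeded SWEET12 by 1.75-fold (1.7 to 1.8) in wild type.

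The make-up of the summed level followed from these differences. SUC1 held 37.3% of the summed FPKM of the 10 members in wild type and 25.3% in hdt1. SWEET11 and SWEET12 together held 42.4% and 54.5%, and SUC2 held 10.6% and 11.5%. The sum over all members was 1036 FPKM in wild type and 1278 in hdt1, a ratio of 1.23.

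**Figure D3:**
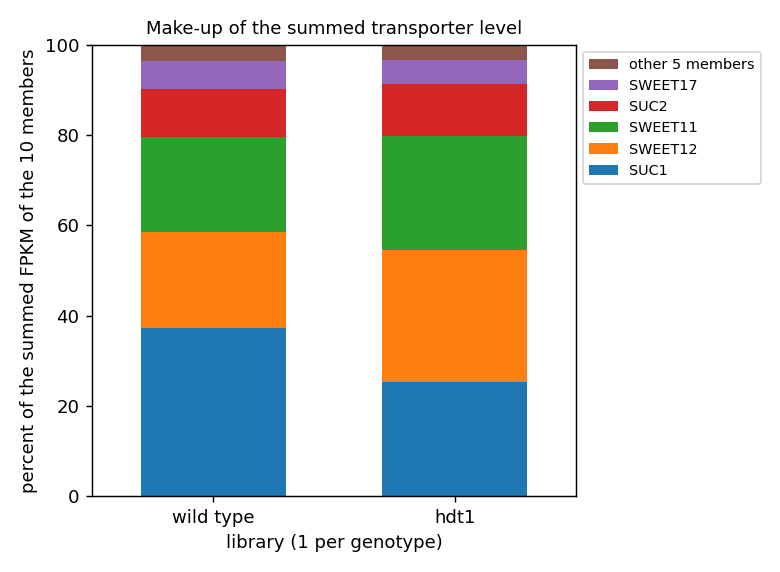
Percent of the summed FPKM of the 10 members held by each of the 5 most abundant genes and by the other 5 together, in the wild-type and the hdt1 library. The part of SUC1 is 37.3% in the wild-type and 25.3% in hdt1, and the combined part of SWEET11 and SWEET12 is 42.4% and 54.5%.

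The differences were read against genes of like level, since ratios moved with level in these libraries. Of 1340 genes with a mean from 100 to 500 FPKM, the median log2 ratio was -0.16, with intervals below 1 for 62.6% of them and above 1 for 26.9%. SUC1, with a log2 ratio of -0.25, lay among them with 36.1% at or below its value. SWEET12 (0.76), SWEET11 (0.56) and SUC2 (0.41) lay higher, with 4.78%, 6.57% and 10.7% of these genes at or above them. SWEET16 (0.80) belonged to the 3824 genes from 1 to 5 FPKM, of which 6.69% had a log2 ratio at least as high. For SUC4 (0.26), 18.7% of the 6700 genes from 5 to 20 FPKM were at or above its value, and for SWEET1, SWEET2, SWEET17 and SUC3 the share of genes of their level at or above them was between 27.1% and 41.0%.

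**Figure D4:**
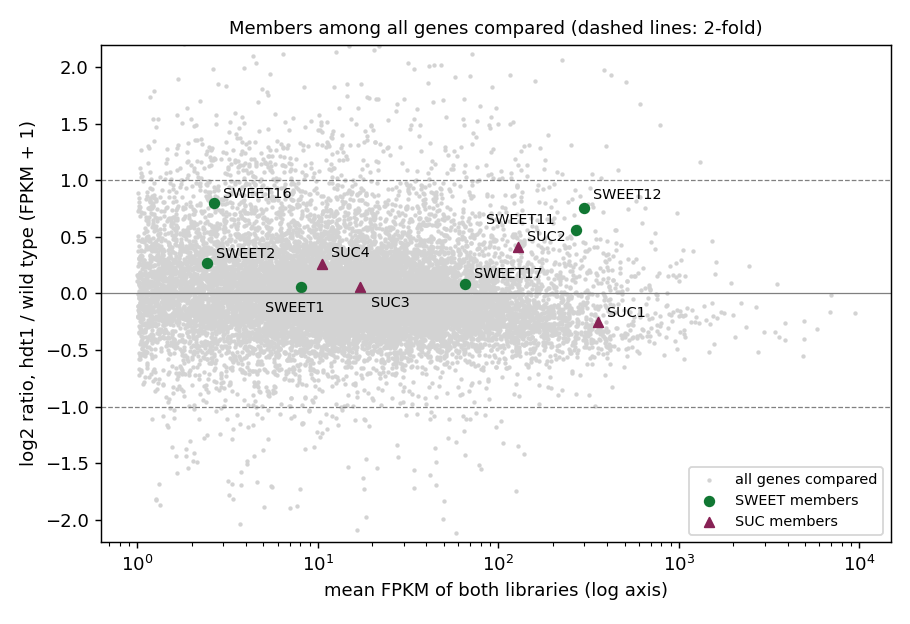
Log2 ratio of hdt1 over wild type (FPKM + 1) against the mean FPKM of both libraries (log axis) for the 17811 genes compared (grey), SWEET members (green circles) and SUC members (purple triangles). No member reaches the dashed 2-fold lines, and 32 genes beyond 2.2 on the log2 axis are not drawn.

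The rest of both families was mostly silent in the stem. Of 11 other SWEET and 5 other SUC genes, 2 reached a mean of 1 FPKM. SWEET13 (AT5G50800), a sucrose facilitator of the same clade as SWEET11 and SWEET12, was at 7.13 FPKM in wild type and 13.7 in hdt1, 1.93-fold higher (1.62 to 2.3). Against SWEET12 it amounted to 0.0323 (0.0278 to 0.0373) and 0.0368 (0.0332 to 0.0407) of the level. SWEET14 (AT4G25010), of that clade as well, had 1.37 and 1.32 FPKM, 1.03-fold lower (0.644 to 1.66).

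The remaining family genes rested on few reads. SWEET4 was at 0.768 and 1.15 FPKM and SWEET5, known from the vegetative cell of pollen, at 0.651 and 0.307, both with intervals that include 1. SWEET15 (SAG29 in the annotation), a senescence-associated gene, had 9 reads in wild type and 1 in hdt1, 9.56-fold lower (1.32 to 419). SUC5 had 6 and 13 reads, SWEET10 had 4 and 2, SUC6 had 2 and 0, and SWEET7, SWEET9 and SUC9 had 0 and 1. SWEET3, SWEET6, SWEET8, SUC7 and SUC8 were at 0 in both libraries, and the limit set by a count of 0 (3 reads) lay between 0.0747 and 0.176 FPKM for these genes at their annotated length. The SUC6 to SUC9 genes share stretches with each other, up to 17.3% of the 50-base words of SUC8, so that low values of these 4 are uncertain.

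Other sugar carriers of the stem were taken from lists chosen by function. The STP proteins are proton symporters that take hexoses into the cell. Of 14 STP genes 7 were compared, 5 of them above 0 and 2 below, with a median log2 ratio of 0.27. At least 2-fold higher were 2 of the 7. Over all genes compared, 46.0% were above 0 and 2.32% at least 2-fold higher. STP1 (AT1G11260), the main monosaccharide uptake carrier, was at 145 FPKM in wild type and 304 in hdt1, 2.09-fold higher (2.01 to 2.17). Its read numbers, like those of SUC4, could be fixed only up to a common factor, and the interval uses the smallest factor that gave at least 0.5 of the annotated length. STP14, a galactose carrier, was at 6.99 and 16.7 FPKM, 2.39-fold higher (2.08 to 2.75). STP4 was 1.58-fold higher (1.46 to 1.7), and the listed gene AT5G61520 was 1.31-fold lower (1.2 to 1.43). STP1 thus stood near the level of SWEET11 in hdt1 and below it in wild type.

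Of 11 genes for sugar carriers of the vacuole and plastid, 10 were compared and 9 were above 0, with a median of 0.22 and none past 2-fold. Over all genes compared, 46.0% were above 0 and 3.06% past 2-fold. ERDL6, which exports glucose from the vacuole, was 1.42-fold higher (1.34 to 1.49), ESL1 1.36-fold (1.29 to 1.43), SFP2 1.5-fold (1.36 to 1.65) and TMT1, which imports sugars into the vacuole, 1.2-fold (1.09 to 1.32). ERD6, the most abundant of them, was at 287 FPKM in wild type and 264 in hdt1, 1.09-fold lower (1.06 to 1.12).

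Phloem markers were higher in hdt1, as were SWEET11, SWEET12 and SUC2. Of 9 phloem genes 7 were compared, with a median log2 ratio of 0.46. Each of the 7 had a log2 ratio above 0 and an interval above 1, beside 46.0% and 25.0% of all genes compared. At least 2-fold higher was 1 of them, beside 2.32% of all genes compared. SEOR1 and SEOR2, filament proteins of sieve elements, were at 10.1 and 10.1 FPKM in wild type and at 21.2 and 19.7 in hdt1. They were 2.1-fold (1.9 to 2.33) and 1.95-fold (1.77 to 2.16) higher. The potassium channel AKT2 was 1.49-fold higher (1.35 to 1.64), FTIP1, a companion cell protein, 1.48-fold (1.25 to 1.76) and the phloem lectin PP2-A1 1.18-fold (1.14 to 1.22). The summed level of the 9 markers was 298 FPKM in wild type and 376 in hdt1, of which PP2-A1 alone held 238 and 281. None of the 9 was at 0. In bulk stem, fewer or more cells of a type and less or more RNA per cell cannot be told apart, and the part of the phloem markers in the values of SWEET11, SWEET12 and SUC2 was not tested.

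Against single phloem genes the members went both ways. SUC2 over SEOR1 was 10.9 (10.03 to 11.98) in wild type and 6.95 (6.54 to 7.39) in hdt1, and SUC2 over PP2-A1 was 0.462 (0.444 to 0.481) and 0.523 (0.505 to 0.541). SUC2 over APL, a transcription factor of phloem identity, was 10.1 (9.04 to 11.3) and 10.8 (9.82 to 11.9), with intervals that overlap. SWEET11 over SEOR1 was 21.7 (19.9 to 23.7) in wild type and 15.3 (14.4 to 16.2) in hdt1. Against PP2-A1 both exporter genes were higher in hdt1, SWEET11 with 0.915 (0.881 to 0.949) and 1.15 (1.11 to 1.18), and SWEET12 with 0.926 (0.893 to 0.961) and 1.33 (1.29 to 1.37). SWEET12 over SUC2 was 2.003 (1.93 to 2.08) in wild type and 2.54 (2.46 to 2.62) in hdt1, and SWEET11 over SUC2 was 1.98 (1.9 to 2.05) and 2.19 (2.13 to 2.27). The exporter genes were therefore higher in hdt1 relative to SUC2, beyond counting error in both cases, while SWEET11 was lower relative to SEOR1.

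Markers of other tissues lay on either side of 0. The 7 xylem and fibre markers were above 0, beside 46.0% of all genes compared, with a median of 1.24. At least 2-fold higher were 4 of them, beside 2.32% of all genes compared. Their summed level was 65.7 FPKM in wild type and 186 in hdt1. LAC4, a laccase of lignin, was 3.36-fold higher (3.13 to 3.61), and the cellulose synthase genes CESA7, CESA4 and CESA8 of the secondary wall were 3.59-fold, 2.65-fold and 2.55-fold higher. Epidermis markers had a median of -0.02 from 4 genes compared, 2 of them above 0. Guard cell markers had -0.14 from 4 and green tissue markers -0.17 from 4, each with 1 gene above 0 and 3 below. Of the flower genes 2 of 5 were compared, SEP3 at 0.907 and 1.63 FPKM and SEP1 at 1.94 and 1.47, and none of the 4 seed markers was. The 6 reference genes had a median of -0.08, with 1 above 0 and 5 below. The interval lay below 1 for 3 of them, beside 29.3% of all genes compared. ACT2 was at 487 and 486 FPKM, and UBQ10, the 1 reference gene above 0, was 1.3-fold higher (1.28 to 1.32). The part of these tissues in the values of the 10 transporters was not tested.

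**Figure D5:**
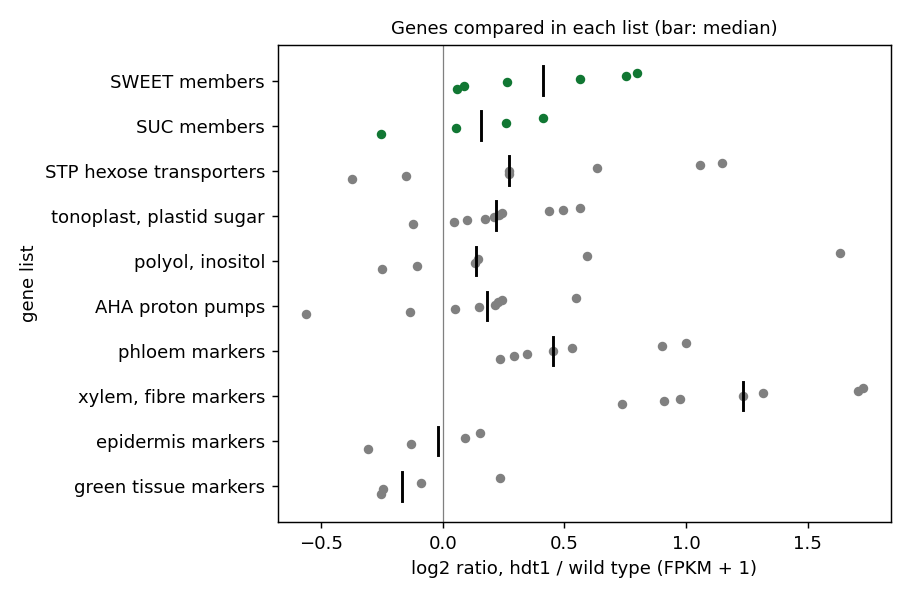
Log2 ratio of hdt1 over wild type (FPKM + 1) for the genes compared in each list, 1 point per gene, with a bar at the median. The median is 0.41 for the SWEET members, 0.16 for the SUC members, 0.46 for phloem markers and 1.24 for xylem and fibre markers.

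The listed transporter, pump or phloem gene nearest to a member in its pair of levels was looked up for the 3 members with the largest absolute log2 ratio, by the Euclidean distance of log2(FPKM + 1) over the 2 libraries among 70 genes. For SWEET11 it was PP2-A1, at 238 and 281 FPKM, at a distance of 0.24. For SWEET12 it was the proton pump gene AHA1, at 265 and 314 FPKM, at 0.36, and for SWEET16 the inositol transporter gene INT2, at 3.44 and 3.13 FPKM, at 0.75. These genes were near in level and did not share the ratios of the members. PP2-A1 and AHA1 were each 1.18-fold higher in hdt1, beside 1.48-fold for SWEET11 and 1.69-fold for SWEET12. INT2 had a ratio of 0.909 (0.714 to 1.16), beside 2.18 for SWEET16.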

How the data were processed

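The authors deposited FPKM values of both libraries in 1 table of 33669 features, per the file headers. Per the submitters' processing notes the tools included TopHat2 2.0.12, Bowtie2 2.2.3 and HTSeq 0.6.1. The genome build, the annotation and the strand setting were not given in the sources used here. The 67 features without a locus identifier were left out.

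Reads were recovered from the values (Python 3.11.15, SciPy 1.17.1), since the worth of a read depends only on library total and gene length. A common factor was set so that the length lay within 0.5 to 1.1 of the RefSeq (TAIR10.1) exon length, the smallest factor being used where several fitted. Exactly 1 factor fitted for 87.1% of features. The recovered reads sum to 100.5% and 100.3% of the totals, so some factors are too large. The recovery was tested on simulated data in which each gene had its annotated length. That test could not show errors in the choice of the factor where the authors' length differed. In the deposited values the recovered length was the annotated length for 9.81% of features. Reads are not independent molecules, so intervals and floors hold for counting error only.

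The members and lists were chosen with earlier results of these data known. Of 116 listed genes, 8 whose names the annotation lacks are called by locus. Besides the members, the text names the other SWEET and SUC genes, HDT1, the nearest genes looked up and genes of the lists. By rule these were, of each list, up to 4 compared genes with the largest absolute log2 ratio and the most abundant one. Genes that this rule picks from the epidermis, guard cell and green tissue lists are not named, and of the reference genes only UBQ10 is. AP3, AG, PI, FUS3, OLEO1, CRA1, CRC, APL, ACT2 and AT1G21450 fall outside that rule and were named after their values were seen. The bands of level and the pairs of genes set against each other within a library were also chosen after values were seen. Alternatives were other pseudocounts, scalings, filters and limits.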

Additional observations from a re-analysis of the deposited data

How the results depend on the processing

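Each of the 10 members kept the sign of its log2 ratio under pseudocounts of 0.1 and 5 FPKM and under 3 other scalings. SWEET16 ranged from 0.37 to 1.08, SWEET12 from 0.74 to 0.82, SWEET11 from 0.55 to 0.63, SUC2 from 0.40 to 0.47 and SUC1 from -0.25 to -0.19. In 9 cases, all under another scaling, the shift was larger than the counting interval allows. These cases were of SWEET11, SWEET12, SUC1 and SUC2, so the narrow brackets of these 4 genes leave out the choice of scaling. The median over the members ranged from 0.16 to 0.32. Over all genes compared the median was -0.03 as reported and 0.028, 0.022 and 0.008 under the 3 other scalings. Under those scalings most genes therefore lay above 0, so the background share of 46.0% above 0 holds for the FPKM values as deposited. The number of members at least 2-fold higher, 0 as reported, was 1 (SWEET16) with a pseudocount of 0.1 and 2 at a limit of 1.5-fold. Over all genes, 413 were higher and 132 lower. These counts were 652 and 246 with a pseudocount of 0.1, 167 and 47 with a pseudocount of 5, 271 and 79 with a minimum mean of 5 FPKM, 1254 and 572 at a limit of 1.5-fold, and 37 and 11 at a limit of 4-fold. With the smallest whole read numbers the interval of SUC4 (0.853 to 1.75) included 1, and those of the other 9 stayed on their side. Precision is limited by depth for SWEET2 and SWEET16 and by the single library per genotype for every value. No paired analysis was possible because each genotype has 1 library.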

Other observations

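The plasma membrane proton pumps build the gradient that the SUC symporters use. Of 11 AHA genes 8 were compared, 6 above 0 and 2 below, with a median log2 ratio of 0.18 and none past 2-fold. Over all genes compared, 46.0% were above 0 and 3.06% past 2-fold. AHA1, the most abundant, was at 265 FPKM in wild type and 314 in hdt1, 1.18-fold higher (1.16 to 1.21). AHA3, known from companion cells, was at 26.1 and 38.6 FPKM, 1.48-fold higher (1.4 to 1.57), beside 1.33-fold (1.28 to 1.38) for SUC2 of the same cells. SUC2 over AHA3 was 4.23 (4.01 to 4.47) in wild type and 3.81 (3.64 to 3.98) in hdt1. AHA2 was 1.18-fold higher (1.11 to 1.25), and AHA4, at 2.94 and 1.67 FPKM, was 1.76-fold lower (1.4 to 2.22).

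Carriers of polyols and inositol held the largest log2 ratio of the transporter lists examined. Of 9 genes 6 were compared, 4 above 0 and 2 below, with a median of 0.14, beside 46.0% of all genes compared above 0. PMT6 (AT4G36670), a polyol and monosaccharide symporter, was at 16.7 FPKM in wild type and 53.9 in hdt1, 3.23-fold higher (2.96 to 3.54), a log2 ratio of 1.64. INT4, an inositol symporter of the plasma membrane, was 1.55-fold higher (1.39 to 1.75), INT1 1.12-fold (0.954 to 1.32) and PMT5, the most abundant, 1.1-fold (1.05 to 1.14). AT2G20780 was 1.2-fold lower (1.1 to 1.31).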
